A study of Mus musculus with 32 samples.

Results

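This account covers the nuclear pore and transport receptor genes of mouse 1-cell and 2-cell embryos. Members were chosen by name alone: every gene listed in both deposited FPKM tables whose symbol begins with Nup, Ipo, Kpna, Kpnb or Xpo followed by a number, plus Xpot and Tnpo1, Tnpo2 and Tnpo3, without symbols that carry the pseudogene ending "-ps". The rule found 44 of 46078 genes, namely 21 nucleoporins and 23 transport receptors. It misses pore and transport genes with other names, such as Tpr, Ran and Cse1l, which are described as a companion list near the end.

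The embryos were collected 12 hours after fertilisation (late 1-cell) or 28 hours after (late 2-cell). Dppa2 and Dppa4 are paired DNA-binding proteins that have been studied as candidate starters of transcription from the embryo's own genome. Embryos of the Dppa2 arm were on a B6/DBA mixed background, and those of the Dppa4 arm and the WT embryos on B6. Total RNA was sequenced in 16 libraries, 2 each of m+z+ controls and m-z+ embryos at each stage of each arm. The m-z+ embryos lack the gene in the egg and carry a working copy from the father, and the labels call them maternal knockouts. PolyA RNA was sequenced in another 16 libraries, 2 of WT 1-cell embryos, 2 of WT 2-cell embryos and 3 each of m-z+ and m-z- 2-cell embryos of each arm, where m-z- embryos are labelled as lacking the gene in both egg and embryo. The descriptions of the WT libraries name them as Dppa4 controls, and those of the polyA libraries name single embryos. The sources used here do not give how the alleles were made, how many embryos went into a total RNA library or whether replicates came from separate females. A p-value therefore sets a difference between group means against the spread of libraries within groups, pooled over the 16 libraries of a table. That spread may be technical.

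A nuclear pore is a ring-shaped channel through the nuclear envelope, built of several copies each of many different nucleoporins. Scaffold nucleoporins form outer and inner rings, FG nucleoporins fill the channel with flexible phenylalanine-glycine repeats, and others form filaments on the cytoplasmic face and a basket on the nuclear face. Importin alpha proteins bind the classical import signal of a cargo and hand it to importin beta, which carries it through the channel. Other importins and the transportins bind cargo themselves, and exportins carry cargo out, with the small GTPase Ran setting the direction. Mammals have several importin alphas, and Kpna7 is the one known from oocytes and cleavage-stage embryos. Fertilised eggs start with RNA stored by the oocyte, which is degraded while the embryo's own genome is switched on, in the mouse mostly at the 2-cell stage.

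Promoter windows around an annotated start, mostly upstream of it, came from RefSeq (GRCm38.p6) and were found for 35 of the 44 members as 42 windows. Those of Kpna7 and Nup37, which fell between the stages, and of Kpna4 and Xpo1, which rose, are shown because 1 differs from the other 3 in its CpG dinucleotides and because they differ in motifs. They run 5′ to 3′ along the gene's strand, and capitals mark the CCAAT box (CCAAT or ATTGG), the GC box (GGGCGG or CCGCCC) and an ETS site (CCGGAAG or CTTCCGG), each searched on both strands.
Kpna7, chr5:145009587-145009886, minus strand: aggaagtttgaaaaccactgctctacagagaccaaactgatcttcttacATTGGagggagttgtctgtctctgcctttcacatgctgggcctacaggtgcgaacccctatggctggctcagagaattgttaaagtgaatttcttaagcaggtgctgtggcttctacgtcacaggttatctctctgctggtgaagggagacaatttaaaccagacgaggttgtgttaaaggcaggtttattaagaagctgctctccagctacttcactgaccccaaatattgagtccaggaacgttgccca
Nup37, chr10:88146742-88147041, plus strand: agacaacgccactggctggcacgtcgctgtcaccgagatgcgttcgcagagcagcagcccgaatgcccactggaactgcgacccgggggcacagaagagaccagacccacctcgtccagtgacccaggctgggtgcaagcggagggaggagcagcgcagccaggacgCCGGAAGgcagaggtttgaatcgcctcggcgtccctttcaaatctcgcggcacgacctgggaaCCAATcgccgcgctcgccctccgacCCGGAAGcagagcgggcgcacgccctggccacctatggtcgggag
Kpna4, chr3:69127043-69127342, minus strand: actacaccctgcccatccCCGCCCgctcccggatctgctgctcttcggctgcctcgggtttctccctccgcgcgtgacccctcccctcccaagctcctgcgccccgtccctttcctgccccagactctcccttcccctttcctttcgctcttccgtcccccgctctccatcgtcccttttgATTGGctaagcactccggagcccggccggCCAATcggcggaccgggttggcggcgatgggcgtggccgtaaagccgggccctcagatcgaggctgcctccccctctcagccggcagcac
Xpo1, chr11:23255791-23256090, plus strand: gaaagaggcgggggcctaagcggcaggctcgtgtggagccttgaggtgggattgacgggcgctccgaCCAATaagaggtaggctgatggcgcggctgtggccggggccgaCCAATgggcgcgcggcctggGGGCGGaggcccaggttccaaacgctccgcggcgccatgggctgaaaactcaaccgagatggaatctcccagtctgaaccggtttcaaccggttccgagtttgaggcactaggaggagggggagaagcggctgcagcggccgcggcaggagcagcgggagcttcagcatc
The Kpna7 window held 4 CpG dinucleotides, against 30 in Nup37, 27 in Kpna4 and 27 in Xpo1, a median of 28 over the members' windows and a median of 7 over all 32851 windows of the table. A GC box was found in 64.3% of the members' windows and in 35.7% of all windows, and a CCAAT box in 54.8% and 37.4%. The TATA box (TATAAA) was found in 9.52% of the members' windows and 13.6% of all, TAATCC in 2.38% and 7.06%, the NR5A site CAAGGTCA in 0 of 42 and 1.56%, and the ETS site in 16.7% and 8.86%. Among the 8 promoters of the 6 genes with a window that fell in all 3 control stage comparisons below, 4 held the ETS site, in Nup37 (2 overlapping windows), Nup107 and Nup54, against 1 of 9 among the genes that rose, in Tnpo3. These are matches of letters in a window, given as a description. In GENCODE M21 on mm10 the Kpna7 gene (ENSMUSG00000038770) spans chr5:144983519-145084030 on the minus strand, so the RefSeq start used here lies inside that locus.

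FPKM, fragments per length of gene and per mapped fragments, is corrected for gene length and is a share of a library's RNA. Depth is unknown, because the tables hold no counts. FPKM totals were 412115 to 629583 in total RNA libraries and 539978 to 675241 in polyA libraries. Replicate libraries had pairwise r of 0.935 to 0.987 (total RNA) and 0.862 to 0.972 (polyA RNA). The summed FPKM of 7 stored maternal genes was 2773 to 3098 in 1-cell and 757.4 to 2125 in 2-cell total RNA libraries, and that of 2-cell marker genes 5.039 to 18 and 281.6 to 404.9, so the stages matched their labels. Cumulus cell genes (8) summed to at most 9.461 FPKM and sperm genes (6) to at most 14.13 FPKM in any total RNA library. In polyA RNA those sums reached 43.39 and 18.33. The libraries labelled Dppa2 m-z- held Dppa2 RNA at 154.9, 130.2 and 76.55 FPKM, against 92.44, 87.35 and 63.25 in Dppa2 m-z+, so their label is not borne out by this RNA. The blood genes (5) moved with the stage: they summed to at most 0.0825 FPKM in 1-cell and 4.581 to 14.83 in 2-cell total RNA libraries, and to at most 0.101 and 16.83 to 1460 FPKM in polyA RNA. Labelled Dppa2 m-z- replicate 3 held the highest sum. It was the only library with Hbb-bs, a haemoglobin gene, above 0 (378 FPKM). The part of such other-cell RNA in the results below was not tested. For the other labels, Dppa2 fell by 1.68 on the log2 scale in 1-cell m-z+ embryos (limma, SE 0.16, adjusted p 0.000701), and Dppa4 was 0, 0 and 0.1491 FPKM in Dppa4 m-z- against 155, 151.9 and 124.8 in m-z+ (log2 difference -7.11, SE 0.30, adjusted p 3e-10). Dppa4 in 1-cell embryos was 1.129 and 0 FPKM in m-z+ and 4.37 and 6.918 in controls, which did not pass (adjusted p 0.369). Total RNA libraries are reverse-stranded. PolyA libraries carry no strand, and 20 of the 43 members found in GENCODE M21 overlap a gene on the other strand. Another gene on the same strand overlaps 17 members, such as Dusp19 for Nup35 and Npm2 for Xpo7, and strand does not separate these in either RNA.

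Importin alpha RNA changed in make-up between the stages. Kpna2, Kpna3 and Kpna7 were the most abundant at the 1-cell stage, of which Kpna2 and Kpna7 fell in total RNA. Kpna1 and Kpna4, near 0 at the 1-cell stage, rose. Kpna3 and Kpna6 did not pass the test in any control stage comparison. All differences in this account are 2-cell minus 1-cell, or mutant minus control, of log2(FPKM + 1), tested with limma over all genes of a table and called at a Benjamini-Hochberg adjusted p below 0.05. That scale understates the change of genes near 0. Genes named for a call were picked on these same values, so a lack of overlap between their groups is description and no further support.

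Kpna7 stood at 250.8 and 208.7 FPKM in the WT 1-cell polyA libraries and at 15.31 and 29.42 in the 2-cell libraries. In Dppa2-arm controls it went from 100.3 and 99.54 to 10.1 and 10.56 FPKM in total RNA, and in Dppa4-arm controls from 72.09 and 75.99 to 19.03 and 40.65. No 2-cell library reached the level of its 1-cell group, although the 2 Dppa4-arm controls at the 2-cell stage were unlike each other. Kpna7 thus fell by 3.37 (SE 0.56, adjusted p 0.000226) in WT polyA RNA, fell by 3.16 (SE 0.30, adjusted p 2e-06) in Dppa2-arm controls and fell by 1.38 (SE 0.30, adjusted p 0.00213) in Dppa4-arm controls, and the last fell by 0.85 (adjusted p 0.0257) without 2-cell replicate 1. In m-z+ embryos its FPKM went from 112 and 111.5 to 22.04 and 14.18 in the Dppa2 arm (log2 change -2.59, SE 0.30, adjusted p 1.08e-05). In the Dppa4 arm it went from 63.74 and 67.86 to 37.18 and 23.59 (-1.12, SE 0.30, adjusted p 0.00733), a call that was lost without 2-cell replicate 2 (-0.81, adjusted p 0.0851). The oocyte importin alpha was lower at the 2-cell stage in every genotype measured at both stages. Gm4871, a gene inside the annotated Kpna7 locus on the same strand, was at most 0.3208 FPKM in total RNA and 1.861 in polyA RNA. The locus also overlaps Gm43561 on the same strand and Arpc1a, 1700018F24Rik, Gm43562 and Gm43563 on the other strand. Their values are not given here, and their part in the Kpna7 values, in polyA RNA without strand above all, was not tested.

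Kpna2 was the most abundant member at the 1-cell stage. In total RNA it was 487.2 and 452.9 FPKM in 1-cell Dppa2-arm controls and 141 and 120.1 at the 2-cell stage, and 441.6 and 434.8 against 136.2 and 113.8 in Dppa4-arm controls. Its log2 changes were -1.84 (SE 0.13, adjusted p 2.27e-07) and -1.81 (SE 0.13, adjusted p 4.22e-07). In m-z+ embryos it went from 474 and 456.1 to 158.8 and 176.9 FPKM in the Dppa2 arm, and from 454.9 and 440.7 to 115.2 and 132.6 in the Dppa4 arm. The 2-cell values were below every 1-cell value in all 4 of these total RNA comparisons. PolyA RNA of WT embryos held Kpna2 at 724.9 and 665.7 FPKM, then 444.8 and 470.9, and the change of -0.60 did not pass (SE 0.58, adjusted p 0.496). The other 2-cell polyA libraries spread from 126.6 to 841.1 FPKM. Kpna2-ps, the processed copy that the rule leaves out, was at most 0.3397 FPKM in total RNA and 0.3018 in polyA RNA.

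Kpna1 was 0.4483 and 0.4279 FPKM in 1-cell Dppa2-arm controls and 34.69 and 47.31 at the 2-cell stage. In Dppa4-arm controls it went from 0.7187 and 0.09473 to 43.56 and 27.35, and in WT polyA RNA from 0.1705 and 0 to 40.55 and 24.98. The log2 changes were 4.85 (SE 0.40, adjusted p 7.01e-07), 4.70 (SE 0.40, adjusted p 1.52e-06) and 4.92 (SE 0.53, adjusted p 1.99e-06), the largest rise of any member tested in both total RNA comparisons and the largest after Nup62cl in WT polyA RNA. The m-z+ embryos reached like levels, with 56.68 and 62.03 FPKM in the Dppa2 arm from 1.458 and 1.217, and 26.27 and 48.74 in the Dppa4 arm from 1.929 and 0.2506. In the mutant 2-cell polyA libraries Kpna1 ran from 12.56 to 44.23 FPKM.

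Kpna4 rose from a similar floor to a lower level. It was 0.226 and 0.063 FPKM in 1-cell Dppa2-arm controls and 12.92 and 2.703 at the 2-cell stage (log2 change 2.65, SE 0.50, adjusted p 0.000538, and 1.70 without 2-cell replicate 1, adjusted p 0.00404). Dppa4-arm controls went from 0.3789 and 0.1439 to 7.256 and 8.539 (2.82, SE 0.50, adjusted p 0.000497), and WT polyA RNA from 0.05404 and 0.09179 to 10.07 and 5.671 (3.002, SE 0.55, adjusted p 0.000572). Every 2-cell library was above every 1-cell library of its group. In Dppa2 m-z+ embryos the 2-cell values were 1.212 and 3.076 FPKM, from 0.2048 and 0.07638. That change of 1.40 (SE 0.50, adjusted p 0.029) was no longer called without either 1-cell replicate (adjusted p 0.0754 and 0.109) or without 2-cell replicate 2 (0.96, adjusted p 0.195). Dppa4 m-z+ embryos went from 0.3116 and 0.04429 to 7.018 and 3.662 FPKM (2.39, SE 0.50, adjusted p 0.00158).

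Kpna3 stayed abundant. It was 142 and 155.8 FPKM at the 1-cell and 119.1 and 129.1 at the 2-cell stage of Dppa2-arm controls, 161.9 and 158.2 against 166.1 and 188.7 in Dppa4-arm controls, and 172.8 and 187.8 against 185.3 and 140.9 in WT polyA RNA. Its stage changes of -0.26, 0.14 and -0.16 did not pass, and the sign of the second turned to -0.21 when each library was scaled to the same total. Kpna6, an importin alpha known to be needed from the mother for early mouse development, was 17.37 and 18.22 FPKM against 19.73 and 23.11 in Dppa2-arm controls, and 22.81 and 23.18 against 24.53 and 22.47 in Dppa4-arm controls. In polyA RNA it was lower, at 2.4 and 4.652 FPKM, then 8.083 and 6.424. It passed the test only in Dppa2 m-z+ embryos (18.83 and 18.46 FPKM, then 24.39 and 25.87, log2 change 0.41, SE 0.15, adjusted p 0.0364), and there the adjusted p ran from 0.0567 to 0.124 when any 1 of the 4 libraries was left out.

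**Figure D1:**
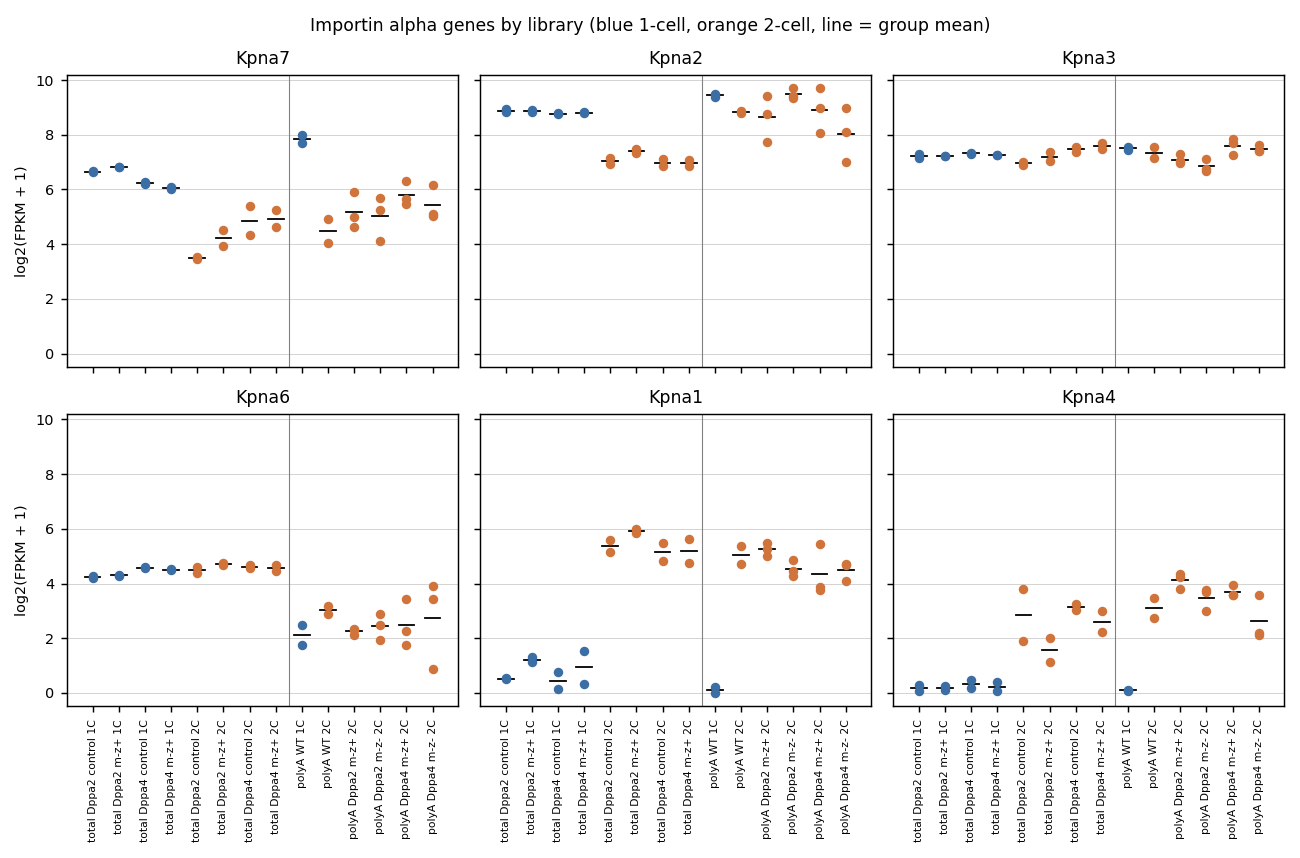
Each panel shows 1 importin alpha gene, with log2(FPKM + 1) on the vertical axis and the 14 groups on the horizontal axis. Points are libraries (blue 1-cell, orange 2-cell), black lines are group means, and the grey line parts total RNA (left) from polyA RNA (right). Kpna7 is lower and Kpna1 and Kpna4 are higher in every 2-cell group than in the 1-cell groups of the same RNA, and Kpna3 lies between 99.99 and 229.2 FPKM in every library.

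Since FPKM is corrected for length, the 6 importin alphas can be summed. Their sum was 681.8 to 753.7 FPKM in 1-cell and 332.9 to 426.4 in 2-cell total RNA libraries. Kpna7 made up 13.56% ± 0.191 (SD, n = 2) of it in 1-cell Dppa2-arm controls and 3.082% ± 0.127 (SD, n = 2) at the 2-cell stage. Its share went from 14.98% ± 0.184 to 4.306% ± 1.22 in Dppa2 m-z+ embryos, from 10.64% ± 0.467 to 7.458% ± 3.76 in Dppa4-arm controls and from 9.572% ± 0.537 to 7.358% ± 2.25 in Dppa4 m-z+ embryos (SD, n = 2 each). One Dppa4-arm control, at 10.12%, lay near the 1-cell share and the other, at 4.797%, below it. Taken of Kpna2 and Kpna7 alone, the direction turned in the Dppa4 arm, where the Kpna7 share went from 14.46% up to 19.29% in controls and from 12.82% up to 19.75% in m-z+ embryos. It still went down in Dppa2-arm controls, from 17.55% to 7.382%, and in Dppa2 m-z+ embryos, from 19.38% to 9.805%. The share of all 6 in WT polyA RNA went from 20.67% ± 1.58 to 3.256% ± 1.53 (SD, n = 2 each). Kpna2 held 61.83% to 65.62% of importin alpha FPKM in 1-cell total RNA and 27.74% to 42.97% in 2-cell total RNA, whereas Kpna1, Kpna3, Kpna4 and Kpna6 together went from 21.4% to 26.56% up to 53.59% to 63.3%. In WT polyA RNA the Kpna2 share was 62.98% and 62.39% in 1-cell and 63.17% and 69.42% in 2-cell embryos, so the shift away from Kpna2 seen in total RNA was not seen there.

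**Figure D2:**
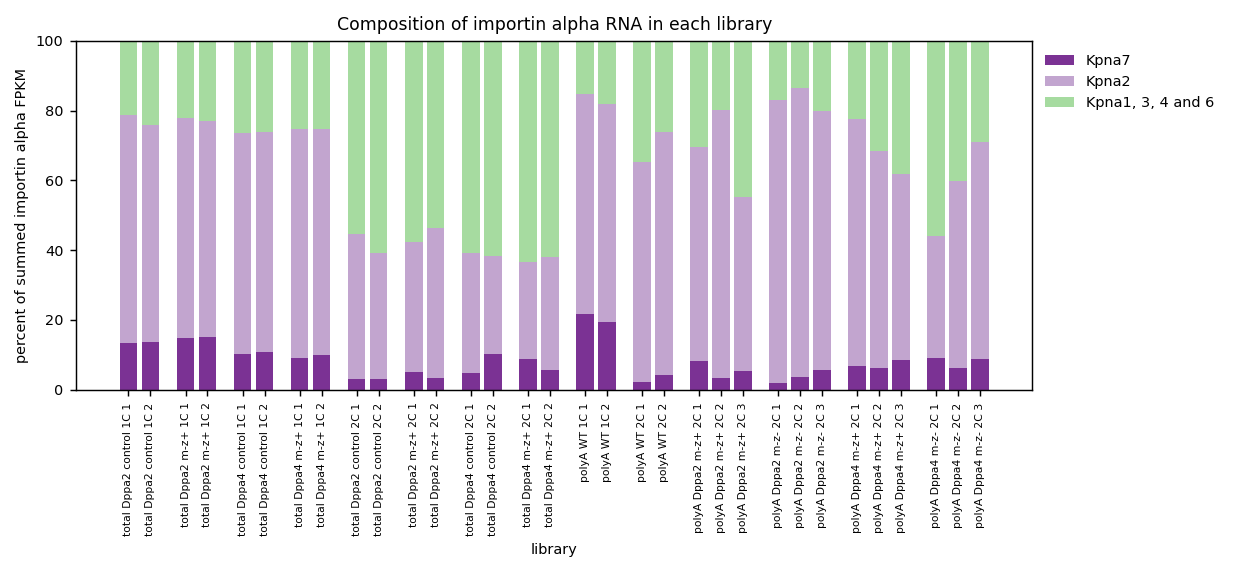
Each bar is 1 library, and its height is split by the percent of summed importin alpha FPKM from Kpna7 (dark purple), Kpna2 (light purple) and Kpna1, Kpna3, Kpna4 and Kpna6 together (green). In total RNA the green part grows from at most 26.56% at the 1-cell stage to at least 53.59% at the 2-cell stage, and Kpna7 is largest in the WT 1-cell polyA libraries.

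Kpnb1, importin beta, the partner of the importin alphas, did not pass the test in any stage comparison. It was 40.92 and 43.26 FPKM at the 1-cell and 49.95 and 50.64 at the 2-cell stage of Dppa2-arm controls, and 57.46 and 55.22 against 52.72 and 42.82 in Dppa4-arm controls. The changes were 0.25 and -0.24, and 1.12 in WT polyA RNA (10.76 and 10.11 FPKM, then 28.33 and 19.93, SE 0.54, adjusted p 0.143).

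Of the 7 other importins, 4 rose in Dppa2-arm controls and in WT polyA RNA and 3 in Dppa4-arm controls, where 31.7%, 17.4% and 24.9% of all genes tested rose. Ipo5, Ipo7 and Ipo11 rose in all of these. Ipo7, known as a carrier of ribosomal proteins, histones and signalling proteins, went from 6.904 and 6.541 to 83.05 and 70.77 FPKM in Dppa2-arm controls (log2 change 3.33, SE 0.31, adjusted p 1.64e-06). In Dppa4-arm controls it went from 8.934 and 6.483 to 65.19 and 31.49 (2.43, SE 0.31, adjusted p 3.62e-05). WT polyA RNA had 1.03 and 0.9917, then 13.34 and 7.058 FPKM (2.42, SE 0.65, adjusted p 0.0104), a call lost without either 1-cell replicate or 2-cell replicate 1 (adjusted p 0.0592 to 0.101). The stages did not overlap in any of the 3 comparisons.

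Ipo11 went from 1.484 and 1.879 to 14.26 and 10.28 FPKM in Dppa2-arm controls, from 2.163 and 2.122 to 15.22 and 6.578 in Dppa4-arm controls and from 0.8556 and 2.345 to 21.96 and 25.74 in WT polyA RNA. Its log2 changes were 2.29, 1.82 and 3.31 (adjusted p 9.33e-05, 0.000831 and 0.000202). Ipo5, a ribosomal protein and histone importer, was already at 20.36 and 20.52 FPKM in 1-cell Dppa2-arm controls and reached 69.05 and 53.84. It rose from 24.29 and 21.27 to 58.58 and 42.06 in Dppa4-arm controls and from 6.235 and 5.746 to 37.73 and 30.73 in WT polyA RNA, by 1.53, 1.09 and 2.33 (adjusted p 0.000119, 0.00213 and 0.00413). In Dppa4 m-z+ embryos the rise of 0.99 in Ipo5 lost its call without 2-cell replicate 2 (0.62, adjusted p 0.0553). The fourth, Ipo4, was called in WT polyA RNA and in the Dppa2 arm. WT polyA RNA went from 1.773 and 3.153 to 17.23 and 10.24 FPKM (2.08, adjusted p 0.0156), and its calls there were lost without 1-cell replicate 1 or 2-cell replicate 1 (adjusted p 0.133 and 0.126). In Dppa2-arm controls the change of 1.17 (adjusted p 0.00844) was lost without 1-cell replicate 1 or 2-cell replicate 2 (adjusted p 0.0837 and 0.0611).

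Ipo8, the nearest relative of Ipo7, was one of the most abundant importins of the 1-cell embryo and fell in Dppa2-arm controls. It was 161.5 and 171 FPKM in 1-cell and 87.98 and 86.94 in 2-cell Dppa2-arm controls (log2 change -0.92, adjusted p 3.61e-05). In Dppa4-arm controls it was 169 and 168.1, then 153.4 and 152.2, a change of -0.14 that did not pass. The difference between the arms in that change did not pass either (adjusted p 0.0868). Ipo9 and Ipo13 passed in none of the 3 control comparisons.

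Among the 3 transportins, Tnpo3, which imports splicing factors rich in serine and arginine, rose most. It was 1.021 and 0.8132 FPKM in 1-cell and 38.96 and 55.6 in 2-cell Dppa2-arm controls, 1.847 and 0.7529 against 31.56 and 16.35 in Dppa4-arm controls, and 1.573 and 2.489 against 22.73 and 23.65 in WT polyA RNA. The rises were 4.64 (SE 0.37, adjusted p 4.73e-07), 3.41 (SE 0.37, adjusted p 9.2e-06) and 3.01 (SE 0.49, adjusted p 0.000188). Tnpo1, which imports many RNA-binding proteins, was 102.2 and 107.8 FPKM against 39.65 and 39.45 in Dppa2-arm controls and fell by 1.39 (adjusted p 0.000785). Its lower values in Dppa4-arm controls (67.77 and 114.2, then 55.4 and 52.91 FPKM, adjusted p 0.0529) and WT polyA RNA (30.41 and 36.38, then 8.497 and 12.17, adjusted p 0.0502) did not pass. Tnpo2 passed in none of the control comparisons.

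Among the exportins, Xpo1 and Xpot rose in all 3 control comparisons and Xpo6 in both of total RNA. Xpo1, the exporter of proteins with a leucine-rich export signal, was 27 and 26.49 FPKM in 1-cell and 92.01 and 73.83 in 2-cell Dppa2-arm controls, and 31.91 and 28.32 against 71.61 and 59.37 in Dppa4-arm controls. WT polyA RNA held 10.57 and 9.735, then 81.81 and 88.27 FPKM. The rises of 1.59 (SE 0.19, adjusted p 1.57e-05), 1.09 (SE 0.19, adjusted p 0.000488) and 2.95 (SE 0.40, adjusted p 2.92e-05) had no overlap between stages. Xpot, the transfer RNA exporter, rose from at most 0.182 FPKM in every 1-cell library to 10.5 and 3.175 in Dppa2-arm controls, 6.82 and 3.77 in Dppa4-arm controls and 2.975 and 4.705 in WT polyA RNA. Its log2 changes were 2.75, 2.46 and 2.05 (adjusted p 6.83e-05, 0.000248 and 0.0118), and the last was lost without either 1-cell replicate or 2-cell replicate 2 (adjusted p 0.0699 to 0.0891).

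A further pair of exportins, chosen for naming after their values were seen, went opposite ways in total RNA. Xpo5, which exports microRNA precursors, was 13.83 and 14.52 FPKM in 1-cell and 3.427 and 2.361 in 2-cell Dppa2-arm controls and fell by 1.98 (adjusted p 4.57e-06), and its 2-cell values in the other 3 total RNA groups were 2.822 to 3.802. WT polyA RNA held 1.648 and 3.167, then 4.852 and 5.015 FPKM, which did not pass (adjusted p 0.377). Xpo6, the exporter of actin and profilin, was 16.48 and 13.58 against 38.14 and 37.02 FPKM in Dppa2-arm controls and rose by 1.27. In Dppa4-arm controls Xpo6 was 14.25 and 11.21 against 26.99 and 24.76 and rose by 0.98. Xpo4 was called lower in Dppa2-arm controls (-0.48, adjusted p 0.0405), a call lost without either 1-cell replicate or 2-cell replicate 2 (adjusted p 0.101 to 0.237), and Xpo7 passed in none of the control comparisons.

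Of the 20 nucleoporins tested in total RNA, 10 fell and 4 rose in Dppa2-arm controls, where 29.9% of all genes tested fell. Of the 6 members of the Y complex, which forms the outer ring, 4 fell in each total RNA control comparison and 3 in WT polyA RNA (of all genes tested, 24.2% fell in Dppa4-arm controls and 8.42% in WT polyA RNA). Nup37, a small peripheral Y complex subunit, was 38.6 and 41.35 FPKM in 1-cell and 7.746 and 4.673 in 2-cell Dppa2-arm controls, and 37.32 and 32.95 against 6.736 and 12.38 in Dppa4-arm controls. WT polyA RNA held it at 392.1 and 273.5, then 41.21 and 13.73 FPKM. Its log2 changes were -2.54 (SE 0.26, adjusted p 3.48e-06), -1.83 (SE 0.26, adjusted p 8.5e-05) and -3.72 (SE 0.49, adjusted p 2.19e-05), and the last was the largest fall of any member in WT polyA RNA.

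Nup107, a Y complex scaffold subunit, went from 70.74 and 75.08 to 23.22 and 19.24 FPKM in Dppa2-arm controls, from 78.44 and 79.79 to 12.14 and 9.82 in Dppa4-arm controls, and from 37.55 and 37.61 to 9.308 and 11.52 in WT polyA RNA. Nup85, also of the Y complex, went from 56.73 and 46.6 to 10.64 and 14.82, from 35.64 and 31.11 to 6.8 and 9.152, and from 74.16 and 61.99 to 16.95 and 18.1 FPKM. For neither gene did the stages overlap in any comparison. Nup107 fell in each, with log2 changes of -1.74, -2.75 and -1.76 (adjusted p 0.00033, 1.32e-05 and 0.0218), and so did Nup85, with -1.95, -1.95 and -1.89 (adjusted p 0.000278, 0.000415 and 0.0281). The WT polyA calls of both were lost without any 1 of the 4 libraries, with adjusted p from 0.0628 to 0.115 for Nup107 and from 0.0924 to 0.152 for Nup85. Nup160, another scaffold subunit, fell in both total RNA controls (-1.31 and -1.41) and was 20.1 and 19.17, then 16.79 and 14.86 FPKM in WT polyA RNA, which did not pass. Nup43 was called in WT polyA RNA, where it went from 68.61 and 81.76 to 227.7 and 200.6 FPKM (1.5, adjusted p 0.0078), a call lost without replicate 1 of either stage (adjusted p 0.0737 and 0.06). Nup133 was called higher in Dppa2-arm controls (1.08), and that call was lost without replicate 1 of either stage (adjusted p 0.062 and 0.111).

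In the inner ring, Nup93, which anchors the ring to the channel, went from 56.17 and 49.6 to 17.42 and 9.66 FPKM in Dppa2-arm controls, from 58.23 and 54.92 to 9.23 and 6.662 in Dppa4-arm controls and from 83.24 and 66.73 to 23.87 and 13.25 in WT polyA RNA. Its log2 changes were -1.94 (SE 0.27, adjusted p 4.48e-05), -2.70 (SE 0.27, adjusted p 4.89e-06) and -2.01 (SE 0.63, adjusted p 0.025), the last lost without either 1-cell replicate or 2-cell replicate 2 (adjusted p 0.0829 to 0.17). Nup35 fell in the total RNA controls (-1.10 and -1.29), and its -1.27 in WT polyA RNA did not pass (adjusted p 0.0676). Nup188 was 12.08 FPKM at the 1-cell and 9.259 at the 2-cell stage of Dppa2-arm controls and 4.414 and 1.172 in WT polyA RNA (group means), and its changes of -0.38, -0.19 and -1.33 in the 3 control comparisons did not pass (adjusted p 0.243, 0.589 and 0.0714). Nup155 did not pass in any control comparison either. Nup205 was called higher in Dppa2-arm controls (0.68, adjusted p 0.0442), a call lost without either 1-cell replicate or 2-cell replicate 1 (adjusted p 0.071 to 0.23).

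Among the channel nucleoporins Nup54 went from 71.41 and 84.34 to 18.58 and 15.1 FPKM in Dppa2-arm controls, from 79.09 and 81.98 to 14.71 and 23.28 in Dppa4-arm controls and from 90.05 and 90.21 to 16.48 and 49.15 in WT polyA RNA. Its log2 changes were -2.15 (SE 0.21, adjusted p 2.68e-06), -2.06 (SE 0.21, adjusted p 6.33e-06) and -1.62 (SE 0.55, adjusted p 0.0365), and the last was lost without either 1-cell replicate (adjusted p 0.141 and 0.14) or 2-cell replicate 1 (-0.86, adjusted p 0.374). Nup62, which forms a coiled complex with Nup54 in the channel, did not follow it. It was 25.11 and 24.31 FPKM in 1-cell and 128.3 and 112.2 in 2-cell Dppa2-arm controls and rose by 2.24 (SE 0.60, adjusted p 0.00639). Its 1-cell values in Dppa4-arm controls were unlike, 21.86 and 71.79, against 127.4 and 127.6 at the 2-cell stage, and the rise of 1.66 (adjusted p 0.0377) became 0.82 without 1-cell replicate 1 (adjusted p 0.339) and 2.49 without 1-cell replicate 2, and did not pass without either 2-cell replicate (adjusted p 0.119 and 0.103). PolyA RNA of WT embryos held Nup62 at 27.25 and 35.32, then 43.41 and 36.26 FPKM, and the change did not pass. Nup98 was called lower in Dppa2-arm controls (126.5 and 116.9, then 91.02 and 91.36 FPKM, -0.41, adjusted p 0.00884), a call lost without 1-cell replicate 1 (adjusted p 0.0682).

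On the cytoplasmic face, Nup88 was one of the most abundant nucleoporins of the 1-cell embryo and fell in all comparisons. It went from 139.7 and 129.7 to 33.05 and 21.9 FPKM in Dppa2-arm controls, from 122 and 125.6 to 24.78 and 38.87 in Dppa4-arm controls and from 79.6 and 79.77 to 21.33 and 12.81 in WT polyA RNA. The log2 changes were -2.28 (SE 0.22, adjusted p 2.37e-06), -1.96 (SE 0.22, adjusted p 1.4e-05) and -2.20 (SE 0.44, adjusted p 0.00128). Nup214, its binding partner on the filaments, changed less: 161.6 and 166.4 against 112.2 and 123.4 FPKM in Dppa2-arm controls (-0.48, adjusted p 0.01, lost without 1-cell replicate 2 or 2-cell replicate 1, adjusted p 0.0534 and 0.0625), and 200.9 and 179 against 168.6 and 221 in Dppa4-arm controls, where the stages overlapped. The basket members Nup50 and Nup153 passed in no stage comparison.

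The copies with restricted expression rose. Nup62cl, an X-linked gene similar to Nup62, was listed at 0 in every 1-cell library of both tables. At the 2-cell stage it was 4.312 and 6.035 FPKM in Dppa2-arm controls, 10.12 and 4.526 in Dppa4-arm controls and 49.29 and 52.74 in WT polyA libraries, and it rose in each (adjusted p 0.000162, 8.92e-05 and 2.65e-05). The mutant 2-cell polyA libraries held 14.31 to 158.6 FPKM. Nup210l, a copy of the membrane nucleoporin Nup210 known from the testis, passed the filter on low values in polyA RNA alone and was 0.05751 and 0.0123 FPKM at the 1-cell and 4.028 and 4.484 at the 2-cell stage in WT embryos (2.34, SE 0.52, adjusted p 0.00278). Nup210 itself was at most 4.025 FPKM in any total RNA library and at most 1.557 in any polyA library. Its call in Dppa4-arm controls (1.22, adjusted p 0.0204) was lost without 1-cell replicate 2 or 2-cell replicate 2 (adjusted p 0.13 and 0.195).

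**Figure D3:**
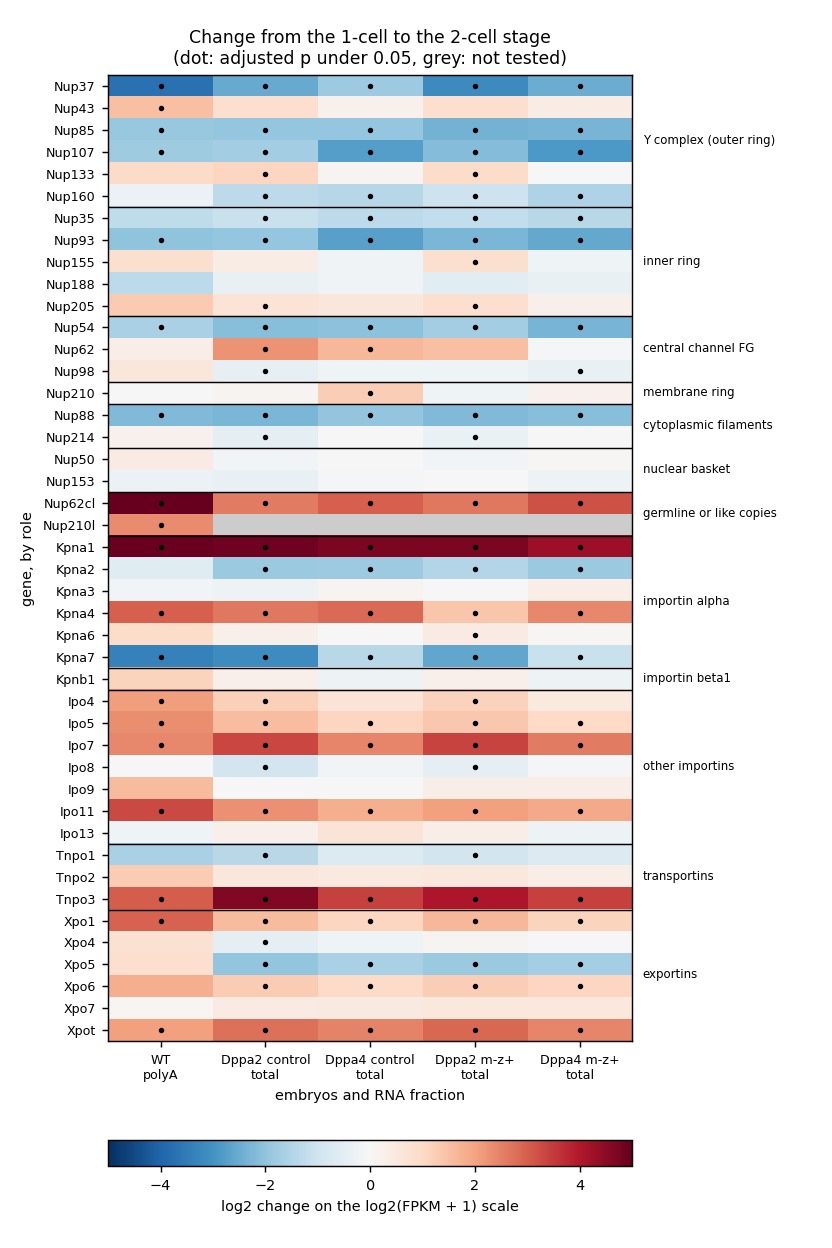
Rows are the 44 genes grouped by role, columns the 5 stage comparisons, and colour gives the log2 change between the stages (2-cell minus 1-cell) on the log2(FPKM + 1) scale (red higher, blue lower, dot adjusted p under 0.05, grey not tested). Nup37, Nup85, Nup88, Nup93, Nup107, Nup54 and Kpna7 are blue with a dot in all 5 columns, and 8 receptors and Nup62cl are red with a dot in all 5; the size of the Nup62cl change depends on the pseudocount, since its 1-cell values are 0.

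Counted over the list, 30 of 43 members tested passed in Dppa2-arm controls (14 higher, 16 lower), or 69.8%, against 61.6% of all genes tested, of which 31.7% were higher and 29.9% lower. In Dppa4-arm controls 23 of 43 passed (12 higher, 11 lower), 53.5% against 49.1% (24.9% higher, 24.2% lower). WT polyA RNA had 19 of 44 (12 higher, 7 lower), 43.2% against 25.9% (17.4% higher, 8.42% lower). The m-z+ embryos had 29 of 43 in the Dppa2 arm (15 higher, 14 lower), 67.4% against 57.3% (28.8% higher, 28.4% lower), and 22 of 43 in the Dppa4 arm (10 higher, 12 lower), 51.2% against 50.3% (25.3% higher, 25% lower). In total RNA the members' share was thus near that of all genes. The WT polyA count fell to 11 (8 higher, 3 lower) without 1-cell replicate 1 and lay between 13 and 15 without each of the other 3 libraries. The median log2 change of the members was 0.124 in Dppa2-arm controls, 0.0286 in Dppa4-arm controls and 0.656 in WT polyA RNA, beside 0.0615, 0.0395 and 0.231 over all genes tested.

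The 2 families were also counted apart. Of 20 nucleoporins tested in total RNA, 4 rose and 10 fell in Dppa2-arm controls and 3 rose and 8 fell in Dppa4-arm controls, with medians of -0.396 and -0.189. Of 23 receptors, 10 rose and 6 fell, and 9 rose and 3 fell, with medians of 0.392 and 0.497. In WT polyA RNA 3 nucleoporins rose and 6 fell of 21 (median 0), and 9 receptors rose and 1 fell (median 1.26). The m-z+ embryos had 4 nucleoporins higher and 9 lower in the Dppa2 arm and 1 higher and 9 lower in the Dppa4 arm, against 11 receptors higher and 5 lower, and 9 higher and 3 lower. For scale, calls over every tested gene stood at 31.7% higher and 29.9% lower in Dppa2-arm controls. That baseline was 24.9% higher and 24.2% lower for Dppa4-arm controls, and 17.4% and 8.42% for WT polyA RNA. Among m-z+ embryos, the Dppa2 baseline was 28.8% and 28.4%, the Dppa4 baseline 25.3% and 25%. No family count was tested against its baseline. No test of the difference between the families was made. When each library was scaled to the same total, the receptors' median in Dppa2-arm controls was -0.0227, with 10 higher and 7 lower. The nucleoporins had 2 higher and 13 lower there. In each of the 5 comparisons fewer nucleoporins rose than fell, and more receptors rose than fell, under both scaling alternatives. The shares of all genes called under these alternatives are not given here.

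Across the members, 9 rose in all 3 control comparisons: Ipo5, Ipo7, Ipo11, Kpna1, Kpna4, Nup62cl, Tnpo3, Xpo1 and Xpot. All genes had 1831 such genes of 13916 tested in both tables (13.2%). The 7 that fell in all 3 were Kpna7, Nup37, Nup54, Nup85, Nup88, Nup93 and Nup107, against 1158 of all genes (8.32%). All 16 were also called in the same direction in both m-z+ stage comparisons, as were 1673 of the 1831 risen and 1074 of the 1158 fallen genes of the whole tables. No member was called in opposite directions in WT polyA RNA and a total RNA control, as 101 of all 13916 genes were (0.726%). At so low a share, a count of 0 says little about the members. The 11 called in none of the 3 were Ipo9, Ipo13, Kpna3, Kpna6, Kpnb1, Nup50, Nup153, Nup155, Nup188, Tnpo2 and Xpo7, and 26.5% of all genes tested in both tables were called in none. Leaving out any 1 library, 10 of the 16 kept their calls in the 3 control comparisons: Ipo5, Ipo11, Kpna1, Kpna4, Nup62cl, Tnpo3, Xpo1, Kpna7, Nup37 and Nup88. The other 6 lost a call in WT polyA RNA only.

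Summed over the list, the members made up 2152.1 to 2314.8 FPKM in 1-cell and 1512.4 to 1775.4 FPKM in 2-cell total RNA, and the groups did not overlap. Nucleoporins held 46.4% to 50.3% of that sum at the 1-cell and 40.2% to 46.6% at the 2-cell stage. In WT polyA RNA the sum was 2567.1 and 2365.4, then 1758.7 and 1726 FPKM, of which nucleoporins were 50.8% and 48.7%, then 41.3% and 43.1%. FPKM is a share of a library's RNA, so these sums do not tell the amount of RNA in an embryo.

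The WT polyA and the Dppa2-arm total RNA comparison share no library. Xpo5 and Kpna2 fell and Nup62 rose in the Dppa2-arm controls and did not pass in WT polyA RNA. The change of Nup62 did not pass in total RNA of Dppa2 m-z+ (1.49, adjusted p 0.0508) or Dppa4 m-z+ embryos (-0.057, adjusted p 0.949). Some members also stood at unlike levels in the 2 tables. Nup37 stood at the 86.4 and 84.8 percentile of all genes in 1-cell Dppa4-arm control libraries and at 98.8 and 98.3 in WT 1-cell polyA libraries. Nup43 stood at 62.2 and 67.5 against 93.1 and 94.2. Nup98, a mobile FG nucleoporin, went the other way, at 97.1 and 96.8 against 73.7 and 73. The 3 were chosen after their values were seen, and their FPKM were 132.8 and 124.2 in total and 9.53 and 9.883 in polyA RNA for Nup98, 37.32 and 32.95 against 392.1 and 273.5 for Nup37, and 8.658 and 11.23 against 68.61 and 81.76 for Nup43. The 2 tables differ in library kit, strand and normalisation, and no test across them was made. Nup43 overlaps Pcmt1 and Nup37 overlaps Gm26357 on the other strand.

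**Figure D4:**
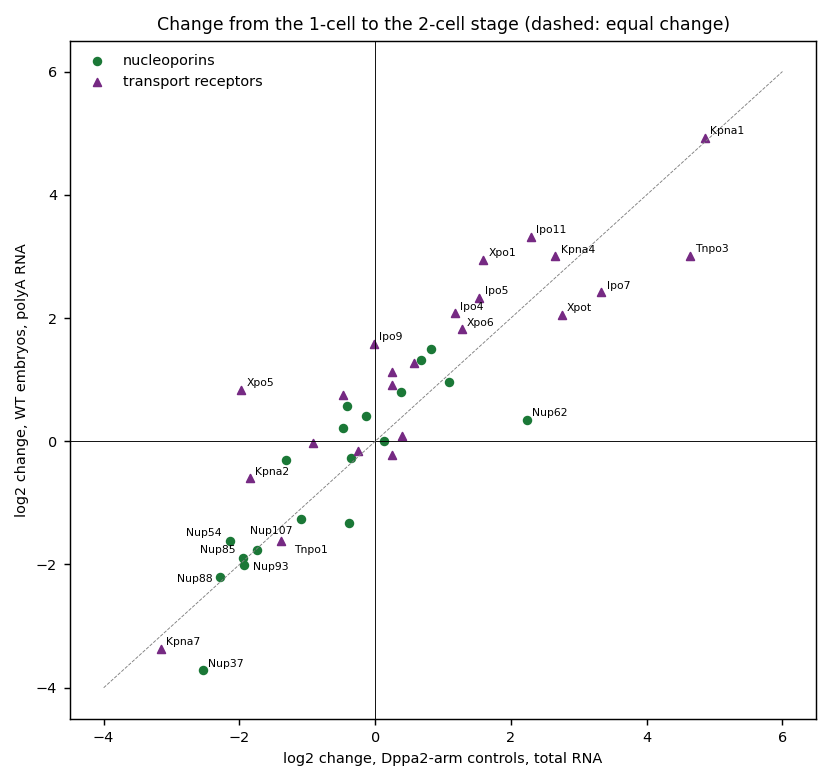
Each point is 1 of 42 genes tested in both tables, leaving out Nup62cl, with its log2 change between the stages (2-cell minus 1-cell) in Dppa2-arm control total RNA on the horizontal and in WT polyA RNA on the vertical axis (circles nucleoporins, triangles receptors, dashed line equal change). Kpna1 at 4.85 and 4.92 and Kpna7 at -3.16 and -3.37 lie at the ends near the line, and Xpo5 and Nup62 lie off it.

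Genotype was compared to ask whether these genes differed with the labelled loss of Dppa2 or Dppa4. In 2-cell m-z+ embryos the targeted RNA was near the control level in total RNA. Dppa2 had a mean of 52 FPKM against 51.33 in controls, and Dppa4 22.9 against 23.82. Dppa4 in m-z+ polyA RNA was 143.9 FPKM against 192.7 in WT, which did not pass (limma adjusted p 0.904). These m-z+ comparisons thus concern loss in the egg, with no measured loss of the RNA at the 2-cell stage. No member passed the limma test in any of the 8 genotype comparisons, nor in the comparison of stage changes between m-z+ and control embryos of either arm. All genes were called at 0% to 0.186% in them (0.0398% in 1-cell and 0.186% in 2-cell Dppa2 m-z+ and 0.00664% and 0% in Dppa4 m-z+ embryos, 0.0054% for labelled Dppa2 m-z- and 0.0162% for Dppa4 m-z- against m-z+, 0% for Dppa4 m-z+ and 0.0648% for Dppa4 m-z- against WT, and 0% and 0.00664% for the difference of stage changes in the Dppa2 and Dppa4 arm). An unadjusted p under 0.05 was reached by 0 members in 1-cell and 4 in 2-cell Dppa2 m-z+ embryos, and by 0 and 1 in Dppa4 m-z+ embryos, of 43 tested. Among all 15068 genes tested 459, 1932, 192 and 402 reached it, in the same order. It was reached by 1 of 44 members for labelled Dppa2 m-z- and 3 for Dppa4 m-z- against m-z+. Against WT it was reached by 3 for Dppa4 m-z+ and 2 for Dppa4 m-z-, which share the WT libraries. In these polyA comparisons 1415, 1296, 1230 and 1976 of all 18506 genes tested reached it. For the differences of stage changes it was reached by 2 and 0 of 43 members, beside 1299 and 270 of 15068 genes. In 2-cell Dppa2 m-z+ embryos 1 member passed the limma test without 2-cell control replicate 2, Kpna4 (-2.21, adjusted p 0.0292), and 1 without 2-cell m-z+ replicate 2, Nup107 (-1.04, adjusted p 0.0142), both named after their values were seen. The number was 0 in every other genotype comparison whichever library was left out, labelled Dppa2 m-z- replicate 3 included.

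The members with the smallest p in 2-cell Dppa2 m-z+ embryos were Kpna2 and Kpna4. Kpna2 was 158.8 and 176.9 FPKM against 141 and 120.1 in controls (log2 difference 0.36, SE 0.132, adjusted p 0.272). Kpna4 was 1.212 and 3.076 against 12.92 and 2.703 (-1.26, SE 0.499, adjusted p 0.311), where the groups overlapped and the control at 2.703 FPKM is the replicate whose removal gave the call above. In 2-cell Dppa4 m-z+ embryos they were Nup210 (-1.12, adjusted p 1) and Nup37, at 6.1 and 5.824 against 6.736 and 12.38 FPKM (-0.55, adjusted p 1). At the 1-cell stage they were Xpo4 (-0.38) and Ipo8 (-0.23, 130.1 and 153.6 against 161.5 and 171 FPKM) in the Dppa2 arm and Ipo13 (0.60) and Nup62 (0.82, 67.66 and 74.32 against 21.86 and 71.79) in the Dppa4 arm, all at adjusted p 1. Kpna7 at the 1-cell stage was 112 and 111.5 FPKM in Dppa2 m-z+ and 100.3 and 99.54 in control embryos, and 63.74 and 67.86 against 72.09 and 75.99 in the Dppa4 arm.

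In polyA RNA the smallest p belonged to Ipo4 and Nup54 for the libraries labelled Dppa2 m-z-. Ipo4 was 3.892, 1.888 and 7.179 FPKM against 6.41, 16.23 and 7.474 in m-z+ (-1.08, SE 0.487, adjusted p 0.627), and Nup54 was 69.77, 40.57 and 33.17 against 25.64, 38.33 and 16.22 (0.83, SE 0.447, adjusted p 0.71). For Dppa4 m-z- against m-z+ they were Nup160, at 3.494, 20.25 and 15.17 against 26.91, 20.81 and 28.02 FPKM (-1.17, SE 0.472, adjusted p 0.694), and Kpna4, at 3.572, 3.398 and 11.08 against 11.02, 10.83 and 14.58 (-1.06, SE 0.45, adjusted p 0.694). The Nup160 groups did not overlap and the Kpna4 groups did, and Dppa4 m-z- replicate 1 held the lowest Nup160 and also the lowest Kpna2 (126.6 FPKM) of the polyA libraries. Against WT, Dppa4 m-z+ embryos had Ipo4 at 2.331, 3.512 and 5.239 FPKM with WT at 17.23 and 10.24 (-1.66, SE 0.544, adjusted p 0.558), and Nup85 at 4.577, 12.47 and 2.682 with WT at 16.95 and 18.1 (-1.51, SE 0.553, adjusted p 0.628). Dppa4 m-z- embryos had Nup43 at 77.6, 93.58 and 137.6 FPKM with WT at 227.7 and 200.6 (-1.09, SE 0.352, adjusted p 0.321), and Nup93 at 5.035, 6.163 and 10.66 with WT at 23.87 and 13.25 (-1.24, SE 0.572, adjusted p 0.454). For the difference of stage changes they were Ipo8 (0.42, adjusted p 0.533) and Xpo4 (0.62, adjusted p 0.547) in the Dppa2 arm and Nup62 (-1.71) and Ipo13 (-0.90), both at adjusted p 1, in the Dppa4 arm. Kpna7 in the mutant 2-cell polyA libraries was 59.05, 30.67 and 23.47 FPKM in Dppa2 m-z+, 16.42, 36.64 and 50.48 in labelled Dppa2 m-z-, 78.75, 49.72 and 43.15 in Dppa4 m-z+ and 33.24, 31.77 and 71.29 in Dppa4 m-z- embryos. The m-z+ and m-z- groups of each arm overlapped. Every Dppa4 m-z+ and Dppa4 m-z- value lay above both WT 2-cell values given above, and neither difference from WT passed the limma test. The mean Kpna7 share of importin alpha FPKM was 3.256% in WT, 7.164% in Dppa4 m-z+ and 8.03% in Dppa4 m-z- embryos.

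**Figure D5:**
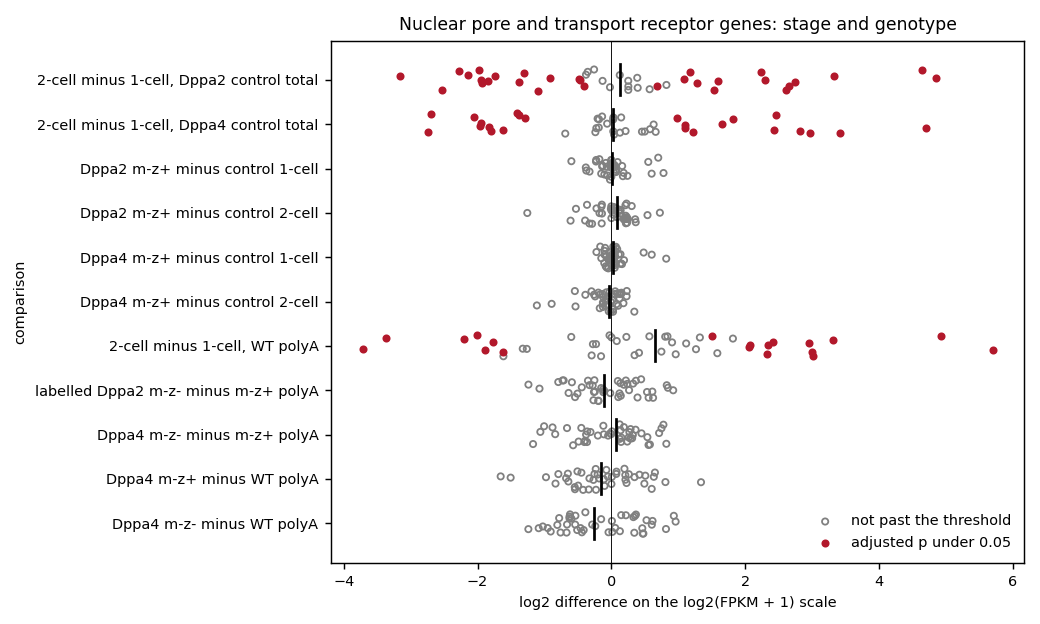
Each circle is 1 member, the horizontal axis its log2 difference on the log2(FPKM + 1) scale in the comparison named at the left, black lines medians, and red marks an adjusted p under 0.05. The 3 stage comparisons hold 30, 23 and 19 red circles and the 8 genotype comparisons none.

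Controls of the 2 arms were compared to see how far the members depend on the arm. Strain, arm and any difference in sequencing between the arms cannot be told apart. At the 1-cell stage no member passed the limma test (1.01% of all genes called). An unadjusted p under 0.05 was reached by 2 of 43 members, beside 1167 of 15068 genes. The smallest p belonged to Kpnb1 (-0.41, Dppa2 minus Dppa4 arm, adjusted p 0.37) and Kpna6 (-0.35, adjusted p 0.587). At the 2-cell stage 4 of 43 were lower in the Dppa2 arm, 9.3% beside 9.13% of all genes, of which 4.63% were lower. Ipo8 was 87.98 and 86.94 against 153.4 and 152.2 FPKM (-0.80, SE 0.12, adjusted p 0.00373), Nup214 112.2 and 123.4 against 168.6 and 221 (-0.71, SE 0.14, adjusted p 0.0114), Kpna7 10.1 and 10.56 against 19.03 and 40.65 (-1.35, SE 0.30, adjusted p 0.0189) and Kpna3 119.1 and 129.1 against 166.1 and 188.7 (-0.51, SE 0.14, adjusted p 0.0411). None of the 4 overlapped between the arms, which adds no support, since the same values gave the calls. No member passed with only the compared groups fitted, and 2 passed without a filter on low values. Which members passed depended on the library left out. Ipo8 stayed between -0.81 and -0.79 without any 1 library, whereas Kpna7 was -1.88 without Dppa4-arm replicate 1 and -0.82 without Dppa4-arm replicate 2. The stage changes of the arms' controls, compared by a contrast chosen after the data were seen, differed for no member by the limma test (0.139% of all genes called, and 6 of 43 members beside 2310 of 15068 genes at an unadjusted p under 0.05). Ipo8 was at -0.78 (SE 0.17, adjusted p 0.0868) and Kpna7 at -1.78 (SE 0.42, adjusted p 0.0974). Without Dppa4-arm 2-cell replicate 1 there were 3, Kpna7 (-2.31, adjusted p 0.0107) and Ipo8 (-0.77, adjusted p 0.0423) among them.

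The companion list held 47 other genes of the pore, the Ran cycle, other karyopherins, messenger RNA export, SUMO at the pore and the lamina. In Dppa2-arm controls 21 rose and 13 fell of 47, in Dppa4-arm controls 17 and 11, and in WT polyA RNA 16 and 4 of 45 tested. Of all genes tested 31.7% rose and 29.9% fell in the first, 24.9% and 24.2% in the second and 17.4% and 8.42% in the third. Of the 8 Ran cycle genes 5 rose and 2 fell, 3 rose and 1 fell, and 3 rose and 0 fell. Rangap1, which makes Ran hydrolyse its GTP in the cytoplasm, went from 2.454 and 1.653 to 33.89 and 21.07 FPKM in Dppa2-arm controls and rose by 3.20 (adjusted p 1.92e-06), by 2.42 in Dppa4-arm controls and by 2.84 in WT polyA RNA. Ranbp2, the filament nucleoporin that holds Rangap1 at the pore, went from 8.088 and 5.657 to 53.89 and 48.14 FPKM and rose by 2.74 (adjusted p 2.73e-06), 1.91 and 3.45. Ran itself was 12.17 and 8.577, then 33.83 and 27.46 FPKM and rose by 1.49 (adjusted p 0.000182), 1.33 and 1.40. Alyref, a messenger RNA export adaptor, was 7.397 and 5.931, then 37.5 and 43.53 FPKM and rose by 2.44 (adjusted p 1.87e-06), 1.88 and 3.41.

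Rae1, a messenger RNA export factor that binds Nup98, was 48.39 and 46.28, then 15.57 and 8.466 FPKM in Dppa2-arm controls and fell (-1.95, adjusted p 4.09e-05), as in Dppa4-arm controls (-1.32) and WT polyA RNA (-1.91). Banf1, which tethers DNA to the lamina, was 49.6 and 47.12, then 8.361 and 9.68 FPKM and fell in all 3 (-2.30 with adjusted p 3.16e-06, -2.89 and -1.77). In all 5 stage comparisons 10 companion genes rose and 4 fell (Sec13, Rae1, Ddx19a and Banf1), where 12% of all genes tested in both tables rose and 7.72% fell. With each library scaled to the same total 7 rose and 5 fell, and with median-ratio scaling 8 rose and 5 fell, and Ran was then no longer among the risen. The shares of all genes at these scalings are not given here. Of the filament genes, Nup88 thus fell and Ranbp2 rose in the same libraries.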

How the data were processed

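FPKM values of 32 mouse embryo libraries were used as deposited, in 1 table of total RNA and 1 of polyA RNA. Per the submitters' processing notes, the authors used HISAT2 2.1.0, StringTie 1.3.3b and mm10. The sources used here do not give the annotation, the filters or the strand setting. The tables hold no counts, so depth and counting error are unknown and precision rests on 2 or 3 libraries per group.

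The deposited FPKM were put on a log2(FPKM + 1) scale, and genes below 1 FPKM in all but 1 library or in every library of a table were left untested, which kept 15068 (total) and 18506 (polyA). limma 3.58.1, run in R 4.3.3 with statmod 1.5.0, fitted the 16 libraries of a table together, 1 mean per group, with its trend and robust options. Tests were two-sided, and p-values were adjusted by Benjamini-Hochberg over all genes tested and called below 0.05. The fit was also run on simulated libraries, with changes planted in genes away from 0 FPKM and independent noise. The outcome is not given here, and such a run does not show how calls behave near 0 or with a deviating library. SE is limma's standard error, and SD the spread of libraries.

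The members and lists were chosen with earlier results of these data known. A rule listed the genes to name. It took all importin alphas, Kpnb1, Dppa2 and Dppa4. In each other class it took up to 4 members per direction called alike in the 3 control stage comparisons, ranked by the smallest change. The same rule gave 6 companion genes. Every member called in a genotype or arm comparison was added, or else the 2 with the smallest p. The stage paragraphs also name the other members of each class, such as Ipo4, Tnpo1 and Nup160, which lie outside this rule. Alternatives were a pseudocount of 0.1, no filter, a filter at 5 FPKM, no trend or robust option, only the compared groups, scaling to a total of 1000000 or by median ratio, a replicate block, and each library left out. Promoters were matched by symbol, and gene positions by identifier in GENCODE M21, where 43 of 44 were found (not Nup62).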

Additional observations from a re-analysis of the deposited data

How the results depend on the processing

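The 16 members called alike in the 3 control stage comparisons were all called under a pseudocount of 0.1, a filter at 5 FPKM, both scalings and the replicate block. Without a filter Nup54, Nup85 and Nup93 were lost, and without the trend and robust options, or with only the compared groups fitted, Nup54 was lost. Scaling to a total of 1000000 moved the median of all genes to -0.297 and -0.241 in Dppa2-arm and Dppa4-arm controls, -0.186 and -0.248 in m-z+ embryos and 0.13 in WT polyA RNA, and median-ratio scaling to 0.235, 0.187, 0.183, 0.174 and 0.112. Members higher and lower in these 5 comparisons were then 12 and 20, 11 and 16, 11 and 17, 10 and 16, and 12 and 10 with the first, and 18 and 13, 14 and 11, 20 and 11, 12 and 11, and 12 and 10 with the second. Scaling moves the calls of all genes, whose called share at these settings is not given here, so the counts are not a result about the members alone. Calls at the 2-cell stage between the arms fell from 4 to 2 without a filter and to 0 with only the compared groups fitted.

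Leaving out 1 library gave 25 to 28 members for Dppa2-arm controls, 22 to 24 for Dppa4-arm controls, 22 to 27 and 21 to 22 for m-z+ embryos, 11 to 15 for WT polyA RNA, 1 to 11 between the arms at the 2-cell stage, 0 to 3 for the difference of the controls' stage changes, 0 to 1 in 2-cell Dppa2 m-z+ embryos, and 0 elsewhere. The share of all genes called in each of these fits is not given here, so the counts do not tell whether the members moved more than other genes. Libraries with the same replicate number did not deviate together (r from -0.14 to 0.14 in total and -0.18 to 0.12 in polyA RNA). The replicate block gave 29 (13 higher, 16 lower) for Dppa2-arm controls, 23 for Dppa4-arm controls, 29 and 22 for m-z+ embryos, 19 for WT polyA RNA, 4 between the arms at the 2-cell stage and 0 for every genotype comparison.

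Signs turned only for values that had not passed. With scaling to a total of 1000000 these were Kpna6 (-0.20) and Kpnb1 (-0.21) in Dppa2-arm controls, Kpna3 (-0.21) and Kpna6 (-0.32) in Dppa4-arm controls, Kpnb1 (-0.011) in Dppa2 m-z+ and Kpna3 (-0.018) and Kpna6 (-0.28) in Dppa4 m-z+ embryos. With median-ratio scaling it was Kpna3 in Dppa2 m-z+ (0.19). Over the fits without 1 library the values that turned ran from -0.0321 to 0.0893 for Kpna6 in Dppa4-arm controls, from -0.054 to 0.192 for Kpna6 in Dppa4 m-z+, from -0.197 to 0.134 for Kpna3 in Dppa2 m-z+, from -0.352 to 0.0403 for Kpna3 in WT polyA RNA and from -0.0175 to 1.65 for Nup62 in 1-cell Dppa4 m-z+ against control embryos. Taken of Kpna2 and Kpna7 only, the Kpna7 share was 17.55% and 7.382% at the 1-cell and 2-cell stage of Dppa2-arm controls, 19.38% and 9.805% in Dppa2 m-z+, 14.46% and 19.29% in Dppa4-arm controls, 12.82% and 19.75% in Dppa4 m-z+, 24.78% in WT 1-cell polyA RNA, and 10.53%, 14.49% and 8.726% in Dppa4 m-z+, Dppa4 m-z- and Dppa2 m-z+ polyA RNA. The cause was not tested. Genes near 0 FPKM are the ones for which the unknown depth limits a statement.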

Other observations

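Nxf1, the main messenger RNA export receptor, was chosen from the companion list after its values were seen. It rose in WT polyA RNA (39.13 and 52.58 FPKM, then 129.9 and 142.8, log2 change 1.57, limma adjusted p 0.00304). In total RNA it fell in Dppa2-arm controls (42.61 and 48.87, then 30.62 and 28.97, -0.60, adjusted p 0.014) and in Dppa4-arm controls (42.34 and 34.6, then 19.83 and 14.63, -1.12, adjusted p 0.000318). The stages did not overlap in any of the 3 comparisons, and no test across the 2 tables was made.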
